A study of Sus scrofa with 4 samples.

Results

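The miR-99, miR-100 and miR-125 families were followed through adipogenic induction of 2 primary cell types of the pig. The members are the Sus scrofa hairpin entries mir-99a, mir-99b, mir-100, mir-125a and mir-125b, taken by name after dropping a copy number. They are 5 of the 189 miRNAs with a read in the series, and mir-125b has 2 hairpin copies, so that 6 hairpin entries were counted. All 5 were listed in each of the 4 libraries, and each passed the minimum of 10 CPM (the reads of a hairpin over all miRNA reads of its library, on the usual CPM scale) in every comparison.

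Vascular stem cells of passage 1 had been isolated from a back muscle, longissimus dorsi (IVSC), or from subcutaneous fat (SVSC). The labels name the same adipose-derived cell type for both origins, and the plating density differed between them. IVSC and SVSC stand for the cultures without induction. IVSC MDI and SVSC MDI were induced after confluence with insulin at 5 mg/l, the glucocorticoid dexamethasone at 0.25 µM and IBMX, which inhibits phosphodiesterases, at 0.5 mM. The growth and induction media held 20% serum. IBMX and dexamethasone were removed after 3 days, growth medium came back at day 6, and the cells were kept for another 3 or 4 days, without a statement of which culture had which. The sources used here do not give strain, age or the number of animals, nor whether the cultures share an animal. They list no harvest day for IVSC and SVSC, so a difference with MDI cannot be told apart from one of days in culture. Where 4 values follow each other without names, their order is IVSC, IVSC MDI, SVSC, SVSC MDI.

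Each group is 1 library (n = 1), so nothing was tested between conditions and no p-value is given. Ranges in parentheses are 95% intervals for counting error alone, and PCR copies of a molecule could not be removed. "Rose", "fell", "higher" and "lower" as calls stand for a ratio of at least 2-fold whose interval excludes 1, and they compare libraries. Other differences are given as values. Each call was repeated under 4 other scalings: TMM and DESeq2 size factors, which rest on the bulk of the miRNAs, all deposited reads of the library, and miRNA reads without miR-21.

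The members form clusters with let-7 genes that are conserved among animals. A miR-99 or miR-100 gene, a let-7 gene and a miR-125 gene lie together and are commonly thought to be cut from shared primary transcripts, although each hairpin is processed and its product decays on its own. miR-125, the counterpart of lin-4 of the nematode, is known for its part in developmental timing, differentiation and proliferation. miR-99a, miR-99b and miR-100 have closely related sequences, share their seed and are known to repress components of the IGF1R and mTOR pathways, through which insulin acts on growing cells. In the RefSeq annotation of assembly Sscrofa11.1, which differs from the build of the files and was used for gene order only, 5 of the 6 hairpins had an entry. MIR125A, MIRLET7E and MIR99B are neighbours, as are MIR125B-1, MIRLET7A-1 and MIR100, and MIR99A lies beside MIRLET7C, all within 100 kb. mir-125b-2 was not matched.

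The depth was 13252168, 14810112 and 17937121 miRNA reads in IVSC, IVSC MDI and SVSC, but 2573249 in SVSC MDI. SVSC MDI stood apart: hairpins held 55.0% of all deposited reads there, against 70.2% to 77.0% in the others, and Ensembl non-coding RNAs held 38.5%, against 14.0% to 19.3%. Markers of perivascular and mesenchymal cells (5 of 5 with reads) summed to 262057 to 409082 CPM, most of it miR-143. Among them miR-145 differed most with MDI, from 1058 to 5605 CPM in IVSC and from 895 to 7440 CPM in SVSC. miR-214 went the other way in IVSC, from 519 to 246 CPM, and from 443 to 540 CPM in SVSC. miR-199a and miR-199b went from 2127 to 4594 and from 2885 to 6208 CPM in SVSC. In IVSC they went from 3591 to 3488 and from 4267 to 4528 CPM. Markers of skeletal muscle (5 of 5) summed to 6275 CPM in IVSC and 1137 CPM in IVSC MDI, and to 1853 and 888 CPM in SVSC and SVSC MDI. In IVSC miR-206 made most of that difference, with 4874 CPM without and 140 CPM with MDI, while miR-1 was highest in SVSC (1818 CPM) and miR-133a in SVSC MDI (199 CPM). The endothelial marker, miR-126, stood at 52.6 to 134 CPM, blood cell markers (2 of 3 with reads) summed to 7.97 to 34.9 CPM, and 4 of 5 epithelial markers had no entry with a read, the other having 2 to 9 reads. The part of these other cells and of the SVSC MDI library in the results below was not tested. With bulk RNA, fewer cells of a type and less RNA per cell cannot be told apart.

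Together the 5 members took 0.457% of miRNA reads in IVSC and 0.559% in IVSC MDI, and 1.03% in SVSC and 0.755% in SVSC MDI. A read spans a whole small RNA, so levels were not divided by length, though adapter ligation differs between miRNAs and makes levels of different miRNAs less comparable than levels of the same miRNA.

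miR-100 was the most abundant member in 3 of the 4 libraries. It stood at 2300 CPM in IVSC (30477 reads) and 2178 CPM in IVSC MDI (32253 reads), and 7594 CPM in SVSC (136207 reads) and 1814 CPM in SVSC MDI (4668 reads). SVSC alone was high, where miR-100 ranked 9 among all miRNAs, against ranks of 27, 23 and 33 in IVSC, IVSC MDI and SVSC MDI. Of the reads of miR-99a, miR-99b and miR-100 together, miR-100 held 69.1%, 63.5% and 84.4% in IVSC, IVSC MDI and SVSC. In SVSC MDI miR-99b was the largest, with 45.4%.

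miR-99b stood at 817 CPM in IVSC and 855 CPM in IVSC MDI, and 1271 CPM in SVSC and 1944 CPM in SVSC MDI (10822, 12667, 22807 and 5003 reads). Both SVSC libraries lay above both IVSC libraries. miR-99a, the least read of the 3, stood at 213, 397, 133 and 527 CPM in the order given above (2822, 5885, 2377 and 1356 reads). Here both MDI libraries lay above both libraries without MDI.

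miR-125b, the main miR-125 of these cells, stood at 1074 CPM in IVSC and 1762 CPM in IVSC MDI, and 1145 CPM in SVSC and 2668 CPM in SVSC MDI (14230, 26101, 20547 and 6866 reads). It held 81.5% to 90.2% of the reads of the miR-125 pair in the 4 libraries. miR-125a stood at 166, 399, 124 and 600 CPM in the same order (2197, 5910, 2220 and 1545 reads). As with miR-99a, both miR-125 members lay above both libraries without MDI in each MDI library.

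The order of the levels was miR-100, miR-125b, miR-99b, miR-99a and miR-125a in IVSC. In IVSC MDI the order was the same except that miR-125a and miR-99a could not be told apart (389 to 409 and 387 to 408 CPM). In SVSC miR-99b (1255 to 1288 CPM) lay above miR-125b (1130 to 1161 CPM), and the interval of miR-99a (127 to 138 CPM) overlapped that of miR-125a (119 to 129 CPM). In SVSC MDI miR-125b came before miR-99b (1891 to 1999 CPM), miR-100 (1762 to 1867 CPM), miR-125a and miR-99a.

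**Figure D1:**
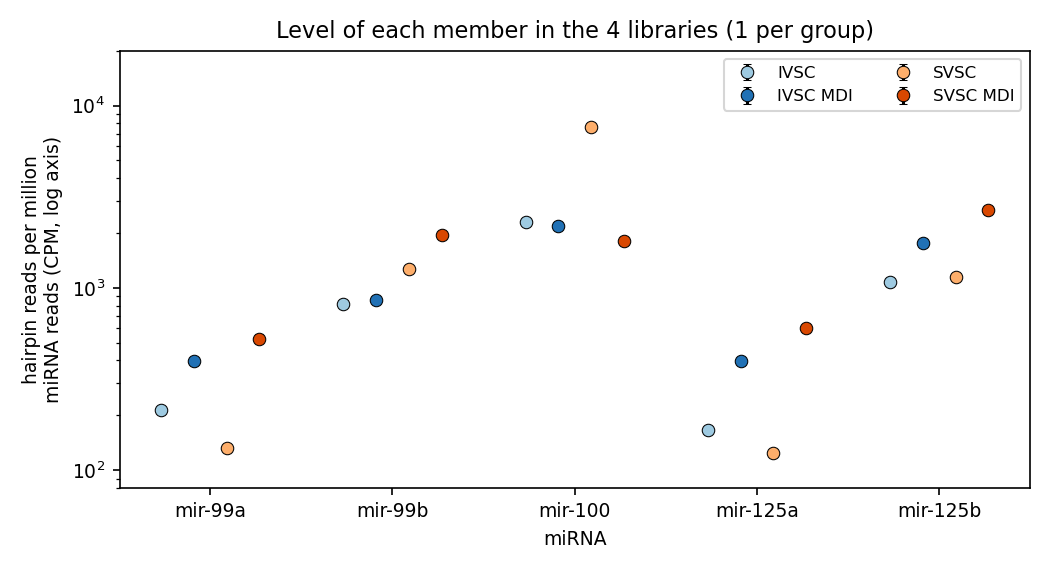
Levels in CPM (log axis) of the 5 members in the 4 libraries, with 1 library per group; bars are 95% counting intervals and mostly lie within the points. miR-100 is highest in SVSC at 7594 CPM, and miR-99a, miR-125a and miR-125b lie higher in each MDI library than in both libraries without MDI.

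In IVSC the question was how the members differed after MDI. miR-125a rose 2.41-fold (2.29 to 2.53), from 166 to 399 CPM. miR-99a had a ratio of 1.87 (1.78 to 1.95) and miR-125b one of 1.64 (1.61 to 1.68), both short of the 2-fold limit, and miR-99a was past it under scaling to all reads (log2 ratio 1.12) and on mature reads (1.06). miR-99b had a ratio of 1.05 (1.02 to 1.07) and miR-100 one of 0.947 (0.932 to 0.962). The log2 ratio of miR-100 was -0.08 and became positive under scaling to all reads (0.14), that of miR-99b was 0.07 and became -0.05 on exactly matching reads. So 1 of 5 members rose and 0 fell, where 16.4% of 152 miRNAs compared rose and 23.7% fell, a share of rises near that of the members. The members' median log2 ratio was 0.71, that of all 152 was -0.04. Over all miRNAs, 25 rose and 36 fell, and under scaling to all reads 32 rose and 21 fell.

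In SVSC the same comparison, scaled to miRNA reads, gave larger ratios for all members but miR-100. miR-125a rose 4.85-fold (4.54 to 5.18), from 124 to 600 CPM, miR-99a rose 3.98-fold (3.72 to 4.25), from 133 to 527 CPM, and miR-125b rose 2.33-fold (2.27 to 2.39), from 1145 to 2668 CPM. miR-99b had a ratio of 1.53 (1.48 to 1.58). miR-100 fell 4.19-fold (4.07 to 4.31), from 7594 to 1814 CPM, and went the opposite way to the miR-125b encoded beside it. The call of miR-125b rests on the scaling: under the other 4 scalings its log2 ratio was 0.72 to 0.82. On exactly matching reads it was 0.98, short of 2-fold, and on mature reads 1.86, past it. miR-125a, miR-99a and miR-100 were called under all 5 scalings. Thus 3 of 5 members rose and 1 fell, where 34.2% of 146 miRNAs rose and 21.9% fell. The members' median log2 ratio was 1.22 and that of all 146 was 0.41. The other 4 scalings lowered every log2 ratio here by 0.40 to 0.50. The split over all miRNAs went from 50 rises and 32 falls to 36 and 45 under TMM scaling, 38 and 42 under DESeq2 size factors, 33 and 44 under scaling to all reads, and 40 and 42 with miR-21 left out of the scaling.

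Relative to IVSC, the log2 change with MDI in SVSC was greater by 1.09 for miR-99a (0.98 to 1.21) and by 1.01 for miR-125a (0.89 to 1.13). The gap was 0.55 for miR-99b (0.49 to 0.60) and 0.51 for miR-125b (0.46 to 0.55). For miR-100 it was -1.99 (-2.03 to -1.94), the only member on the other side of 0 when scaled to miRNA reads. The gaps depend on the scaling. Scaled to all reads, the log2 change of miR-99b was 0.29 in IVSC and 0.13 in SVSC. That of miR-125b was 0.93 and 0.73, so both gaps lay below 0 there, while those of miR-99a and miR-125a stayed above 0. Under TMM scaling the changes in IVSC and SVSC were 0.03 and 0.11 for miR-99b, and 0.68 and 0.72 for miR-125b. Under DESeq2 size factors they were 0.05 and 0.19, and 0.70 and 0.79. Without miR-21 they were 0.15 and 0.21, and 0.80 and 0.82. The gaps of miR-99b and miR-125b stayed above 0 under these scalings but were much smaller than under the main scaling. The intervals of the gaps hold counting error alone, and the harvest days of IVSC MDI and SVSC MDI may differ.

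**Figure D2:**
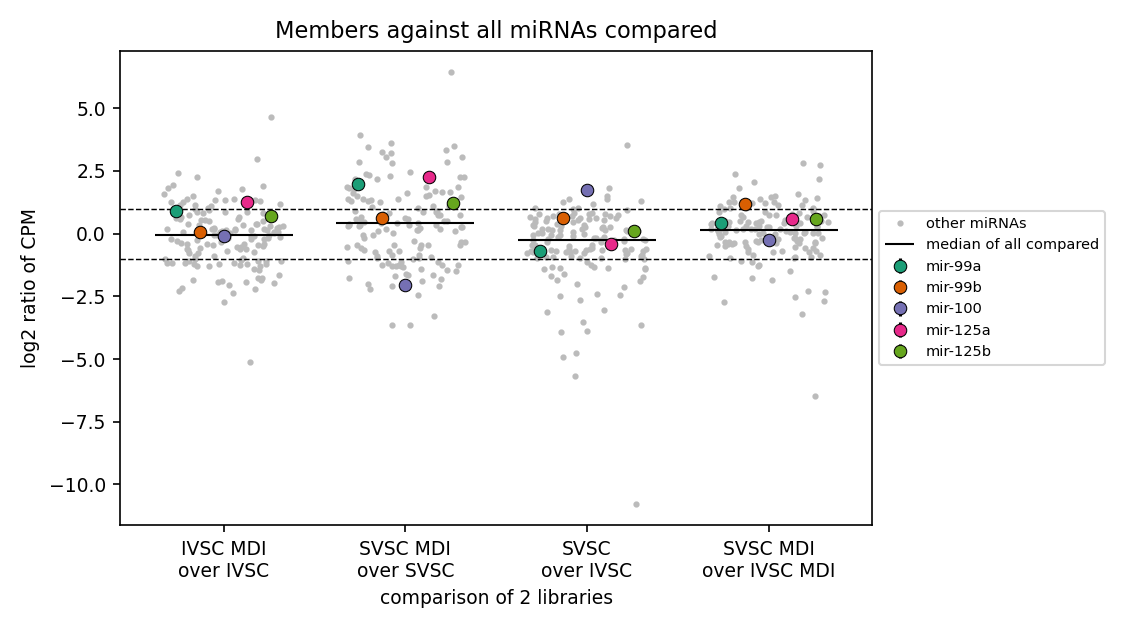
Log2 ratios of CPM in the 4 comparisons of libraries. Coloured points are the 5 members with 95% counting intervals, grey points the other miRNAs at 10 CPM or more in either library, black lines the median of all compared and dashed lines the 2-fold limits. miR-100 lies at -2.07 in SVSC MDI over SVSC and at 1.72 in SVSC over IVSC.

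The origins were then set side by side. Without MDI, miR-100 was higher in SVSC than in IVSC, 3.30-fold (3.26 to 3.34), the only 1 of 5 members past 2-fold, and 0 were lower. Over 148 miRNAs compared, 7.43% were higher and 20.9% lower. miR-99b had a ratio of 1.56 (1.52 to 1.59), miR-125b 1.07 (1.04 to 1.09), miR-125a 0.747 (0.703 to 0.792) and miR-99a 0.622 (0.589 to 0.657). The log2 ratio of miR-125b, 0.09, became -0.28 on mature reads. The members' median log2 ratio was 0.09 and that of all 148 was -0.25. The split over all miRNAs, 11 higher and 31 lower, was 24 and 28 under TMM scaling, 28 and 24 under DESeq2 size factors, 14 and 28 under scaling to all reads, and 24 and 30 with miR-21 left out. These scalings raised every log2 ratio by 0.18 to 0.37, and miR-99b passed 2-fold under DESeq2 size factors (log2 ratio 1.00).

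With MDI, miR-99b was higher in SVSC MDI than in IVSC MDI, 2.27-fold (2.20 to 2.35), and was the member called, 1 of 5, with 0 lower. Here 17.7% of 147 miRNAs were higher and 10.2% lower. miR-125b and miR-125a had ratios of 1.51 (1.47 to 1.55) and 1.50 (1.42 to 1.59), miR-99a 1.33 (1.25 to 1.41) and miR-100 0.833 (0.808 to 0.859). Under scaling to all reads miR-99b was short of 2-fold (log2 ratio 0.66) and the log2 ratio of miR-99a turned from 0.41 to -0.11. On exactly matching reads miR-99b was short of 2-fold as well (0.75) and miR-100 was called lower (-1.01). The members' median log2 ratio was 0.59, that of all 147 was 0.13. Over all miRNAs 26 were higher and 15 lower, against 21 and 20 under TMM scaling, 23 and 17 under DESeq2 size factors, 7 and 29 under scaling to all reads, and 19 and 25 with miR-21 left out. The origin comparisons use the same libraries as those of MDI and are not further evidence for them.

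Partners were compared within each library, where no scaling enters. miR-99b and miR-125a come from the same cluster, yet miR-99b had 4.93 reads per read of miR-125a in IVSC (4.70 to 5.16) and 2.14 in IVSC MDI (2.08 to 2.21), and 10.3 in SVSC (9.83 to 10.7) and 3.24 in SVSC MDI (3.06 to 3.43). The balance lay lower with MDI in both origins. It fell 2.30-fold in IVSC (2.17 to 2.43) and 3.17-fold in SVSC (2.95 to 3.41). In both it was called lower also on mature reads and on exactly matching reads. Neither miRNA has hairpin copies, so the way of counting copies could not change this call. Without MDI it was 2.09-fold higher in SVSC than in IVSC (1.96 to 2.22), and with MDI 1.51-fold (1.42 to 1.61).

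miR-100 had 2.14 reads per read of miR-125b in IVSC (2.10 to 2.18) and 1.24 in IVSC MDI (1.22 to 1.26), and 6.63 in SVSC (6.53 to 6.73) and 0.680 in SVSC MDI (0.655 to 0.706). Only in SVSC MDI was miR-125b the more abundant of the pair. With MDI the balance fell 9.75-fold in SVSC (9.37 to 10.1). In IVSC it was 1.73-fold lower (1.69 to 1.78), short of the limit. SVSC had a 3.10-fold higher balance than IVSC without MDI (3.02 to 3.17). With MDI the balance was 1.82-fold lower in SVSC than in IVSC (1.75 to 1.89).

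miR-99a and miR-125b kept the steadiest balance of the 3 pairs. miR-99a had 0.198 reads per read of miR-125b in IVSC (0.190 to 0.207) and 0.225 in IVSC MDI (0.219 to 0.232), and 0.116 in SVSC (0.111 to 0.121) and 0.197 in SVSC MDI (0.186 to 0.209). SVSC was the low library, and the intervals of IVSC and SVSC MDI overlapped. No change passed 2-fold in any of the 4 comparisons. The change with MDI was 1.14-fold upward in IVSC (1.08 to 1.19) and 1.71-fold upward in SVSC (1.59 to 1.83), and that in IVSC turned to a log2 change of -0.03 on exactly matching reads. miR-125b is encoded beside miR-100 in 1 copy, and its 2 copies give the same mature miRNA, so the balances with miR-125b set miR-99a or miR-100 against reads of both copies.

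**Figure D3:**
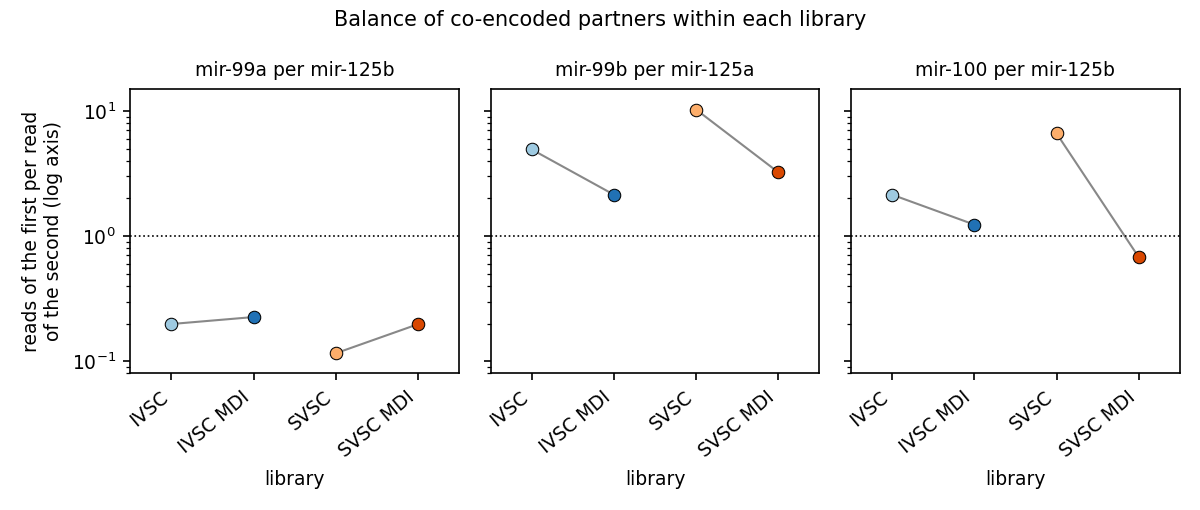
Reads of miR-99a, miR-99b and miR-100 per read of their co-encoded miR-125 partner in each library (log axis, 95% counting intervals); grey lines join the libraries of each origin and the dotted line marks equal reads. miR-99b per miR-125a is lower with MDI in both origins, and miR-100 per miR-125b goes from 6.63 in SVSC to 0.680 in SVSC MDI.

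Mature reads of the 2 copies of mir-125b were nearly all shared. Those unique to a copy were 85 for mir-125b-1 and 15 for mir-125b-2 in IVSC, 221 and 59 in IVSC MDI, 64 and 18 in SVSC, 68 and 20 in SVSC MDI. mir-125b-1, the copy beside mir-100, thus held 85.0% of them in IVSC (76.5 to 91.4%) and 78.9% in IVSC MDI (73.7 to 83.6%), and 78.0% in SVSC (67.5 to 86.4%) and 77.3% in SVSC MDI (67.1 to 85.5%). The intervals overlapped in all 4 libraries, so a shift in these few unique reads was not detectable at this depth. Reads on the rest of the hairpin were more numerous, and mir-125b-1 held 55.9% of those of both copies in IVSC (54.3 to 57.5%) and 51.1% in IVSC MDI (49.3 to 53.0%), and 62.7% in SVSC (61.6 to 63.7%) and 48.9% in SVSC MDI (44.9 to 52.9%). For this class the share was smaller with MDI in both origins, with intervals apart. Uniqueness needs bases that differ between the copies, so these shares do not measure how much mature miR-125b each copy gives. For mir-99a, mir-99b, mir-100 and mir-125a, every mature read was listed as unique to its hairpin.

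The reads of a hairpin are divided into mature reads, star reads and reads on the rest of the hairpin. The star column was 0 for all 6 hairpins in all 4 libraries, where 9 hairpins of the resource had star reads in each. Whether the resource lists a star strand for the 6 hairpins is not stated. Only if it does, a count of 0 allows a star share of up to 0.221% where the reads were fewest. The rest of the hairpin can hold reads of the other arm, the loop or shifted mature reads, and the files do not say which.

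The rest of the hairpin held a larger share of the reads in the miR-125 members than in miR-99b and miR-100. For mir-125a the rest held 11.5% of the reads in IVSC (10.2 to 12.9%) and 2.74% in IVSC MDI (2.34 to 3.19%), and 14.1% in SVSC (12.7 to 15.7%) and 3.56% in SVSC MDI (2.69 to 4.61%). For mir-125b-1 it held 15.5%, 5.73%, 24.1% and 4.47%, and for mir-125b-2 12.7%, 5.52%, 16.0% and 4.70% in the same order. In these 3 hairpins both MDI libraries lay below both others. For mir-99b it held 1.37% to 1.76% and for mir-100 1.05% to 1.69% across the 4 libraries. For mir-99a it held 10.2% in IVSC and 4.35% in IVSC MDI, and 6.27% in SVSC and 5.24% in SVSC MDI.

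With MDI in IVSC the odds of rest against mature reads fell 4.62-fold for mir-125a (3.77 to 5.66), 3.01-fold for mir-125b-1 (2.81 to 3.23), 2.48-fold for mir-125b-2 (2.31 to 2.67) and 2.50-fold for mir-99a (2.10 to 2.98). So 4 of 6 member hairpins fell and 0 rose, where 20.3% of 153 hairpins with at least 100 reads in both libraries fell and 10.5% rose. In SVSC they fell 4.46-fold for mir-125a (3.32 to 5.99), 6.80-fold for mir-125b-1 (6.03 to 7.66) and 3.85-fold for mir-125b-2 (3.42 to 4.34). That made 3 of 6, with 0 rises, where 19.0% of 121 hairpins fell and 21.5% rose. The median log2 change over the 6 was -1.32 in IVSC and -1.11 in SVSC, and over all hairpins it was -0.22 and -0.04. The copies of mir-125b are not independent of each other, since they share mature reads.

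In both copies of mir-125b the ratios of mature and rest reads lay on opposite sides of 1 in both origins. Scaled to miRNA reads, the mature reads of mir-125b-1 had a ratio of 1.83 with MDI in IVSC (1.79 to 1.87) and 2.93 in SVSC (2.84 to 3.01). Its rest reads had ratios of 0.607 (0.568 to 0.649) and 0.431 (0.382 to 0.483), from 2198 to 1491 reads and from 4953 to 306 reads. For mir-125b-2 the mature ratios were 1.83 and 2.91, and the rest ratios 0.736 (0.685 to 0.790) and 0.756 (0.671 to 0.848). mir-99a had ratios of 1.99 for mature and 0.795 (0.669 to 0.945) for rest reads in IVSC, but 4.02 and 3.32 in SVSC. The mature reads of mir-125a had ratios of 2.65 (2.51 to 2.79) and 5.45 (5.09 to 5.83), and its rest reads 0.573 in IVSC (0.467 to 0.701) and 1.22 in SVSC (0.900 to 1.63), the last on 314 and 55 reads. The MDI ratio of total hairpin reads thus lies below that of mature reads for miR-125a and miR-125b.

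**Figure D4:**
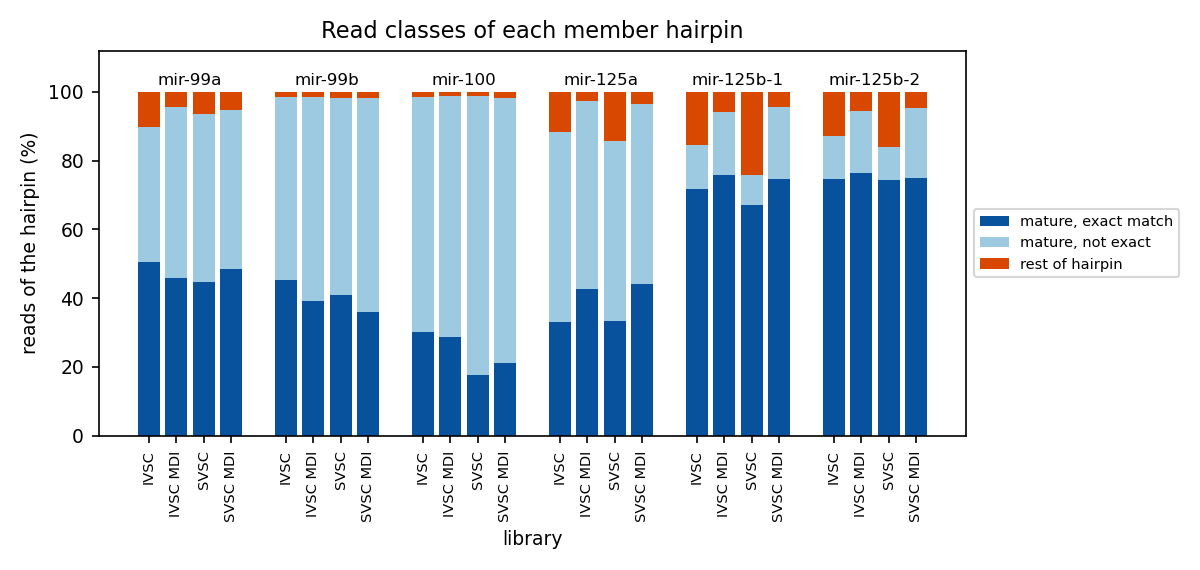
Share of the reads of each of the 6 member hairpins (percent) that match the mature miRNA exactly, lie on it without an exact match, or lie on the rest of the hairpin, in each library. The rest share of mir-125a and both mir-125b copies is smaller in the MDI libraries (for mir-125b-1, 24.1% in SVSC and 4.47% in SVSC MDI), and the exact share of mir-100 is smallest in SVSC.

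The share of mature reads that match the listed mature sequence exactly also differed among the members. For mir-100 it was 30.5% in IVSC (30.0 to 31.0%) and 29.1% in IVSC MDI (28.6 to 29.6%), and 18.0% in SVSC (17.8 to 18.2%) and 21.6% in SVSC MDI (20.4 to 22.8%). The SVSC libraries were low and SVSC was the lowest. Exactly matching miR-100 reads were 1.95-fold more frequent in SVSC than in IVSC (1.91 to 2.00), and mature reads without an exact match 3.91-fold (3.85 to 3.97). Over all miRNAs the exact share of mature reads was 50.2%, 49.5%, 38.3% and 62.3% in the order given above, with SVSC lowest. The median over hairpins with at least 1000 mature reads was 58.6%, 52.6%, 61.5% and 67.0% (96, 101, 100 and 64 hairpins), and here SVSC was not the lowest. The part of the pooled share in the miR-100 values was not tested. For mir-125b-1 the exact share was 84.9%, 80.5%, 88.3% and 78.0%, lower in both MDI libraries, and for mir-99b 45.9%, 39.8%, 41.6% and 36.5%. For mir-125a it was 37.6%, 44.0%, 39.0% and 45.7%, higher in both MDI libraries, and for mir-99a 56.4%, 48.1%, 47.6% and 51.2%. Reads without an exact match may differ in length, in a base or both, and the files do not divide them.

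The let-7 miRNAs of the clusters and the related miR-10 pair were looked at next, 5 miRNAs in all. let-7a, which has an entry beside mir-100 and others elsewhere, stood at 16198, 15046, 45846 and 20890 CPM in the order given above. Like miR-100 it was highest in SVSC, and it fell 2.19-fold with MDI there (2.18 to 2.21), though on mature reads it was short of 2-fold (log2 ratio -0.83). let-7a had 7.04, 6.91, 6.04 and 11.5 reads per read of miR-100, a range far narrower than that of miR-100 per miR-125b. let-7e, encoded between miR-99b and miR-125a, stood at 959, 1522, 1489 and 3911 CPM. Its log2 change with MDI lay between those of its neighbours, with 0.67 in IVSC against 0.07 for miR-99b and 1.27 for miR-125a, and 1.39 in SVSC against 0.61 and 2.28. let-7c, the neighbour of miR-99a, stood at 1723, 1803, 2797 and 4236 CPM, and had 8.09, 4.54, 21.1 and 8.04 reads per read of miR-99a.

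miR-10a and miR-10b, encoded in HOX gene clusters and close to miR-99 and miR-100 in sequence, were unlike each other. miR-10a stood at 621 to 802 CPM in the 4 libraries and passed 2-fold in no comparison. Its direction turned with the scaling or the reads counted in 3 of the 4 comparisons, the exception being SVSC MDI over IVSC MDI (log2 ratio -0.20). miR-10b stood at 3980, 7023, 1546 and 15493 CPM in the order given above. Of the 5 related miRNAs, 0 rose and 0 fell with MDI in IVSC, and 2 rose (let-7e and miR-10b) and let-7a fell in SVSC, let-7e under the main scaling alone.

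The miRNAs with the pattern most like that of each member were sought among 109 others at 100 CPM or more. The measure was the root mean square difference of log2 CPM, centred on each miRNA's mean over the 4 libraries. miR-99b lay nearest to let-7c, at 0.03, then to miR-27a (0.22) and miR-424 (0.28), with a median of 0.74 over all others. miR-99a lay nearest to miR-455 (0.16), miR-574 (0.19) and miR-125a (0.20), against a median of 0.80. miR-125a lay nearest to miR-30c (0.08), miR-99a (0.20) and miR-574 (0.21), against a median of 0.91. miR-125b lay nearest to miR-181b (0.13), miR-365 (0.17) and miR-424 (0.18), and miR-100 to miR-103 (0.18), miR-185 (0.31) and let-7a (0.35), with medians of 0.68 and 1.07. Co-encoded partners were further apart: miR-99b came at place 48 in the order of likeness to miR-125a (0.84), and miR-125b at place 70 in that of miR-100 (1.21). miR-125b came at place 9 for miR-99a (0.37).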

How the data were processed

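Small RNA (fragments of 16 to 35 nt, from about 10 µg of total RNA, 12 cycles of PCR, 36 sequencing cycles) was measured in 4 libraries. The deposited values are read counts per feature, and per the file headers they were assigned to 4 resources, with the pig's hairpins first, then Ensembl's Sscrofa9.61 set of non-coding RNAs, a piRNA set and Rfam. No source used here gives the aligner, the trimming or the mismatches allowed. A role for mm9, listed in the submitters' processing notes, is not stated. In the SVSC file the deposited column of unique mature reads holds a damaged value for an Rfam tRNA (another unit than a count), so its hairpin entries alone were used. Entries without a resource name, 3 in SVSC and 1 in SVSC MDI, were left out.

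Hairpin totals were used, copies counted once (largest copy plus the uniquely matching mature reads of the others), and scaled to CPM over the miRNA reads. Ratios have exact 95% Clopper-Pearson intervals conditional on the reads of both libraries. Shares have exact binomial intervals and changes of a balance Woolf intervals for the log odds ratio. miRNAs at 10 CPM or more in either library were compared, and a count of 0 was set to 3 reads (0.167 to 1.17 CPM). SciPy 1.17.1, pandas 2.3.3, NumPy 2.4.6 and Python 3.11.15 were used. Scaling alternatives came from edgeR 4.0.16 (TMM) and DESeq2 1.42.0 size factors in R 4.3.3. The intervals and calls were tested on simulated counts that vary by counting error alone, which says nothing of variation between cultures or libraries.

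The members, the list of related miRNAs and the rules were chosen with earlier results of these data known. Named were all members, the 5 related miRNAs and the 3 miRNAs nearest to each member in pattern, at 100 CPM or more. The limit of 100 reads for the rest of the hairpin was chosen after seeing the data. No sequences are printed.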

Additional observations from a re-analysis of the deposited data

Results flagged for a closer look

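The difference between SVSC and IVSC changed sign with MDI for 3 members, and these differences of sign were not tested between replicates. miR-100 had a log2 ratio of 1.72 without MDI and -0.26 with MDI, miR-99a -0.68 and 0.41, and miR-125a -0.42 and 0.59. For miR-99a the sign did not change under scaling to all reads (-0.50 and -0.11). For miR-125a the interval included 0 without MDI under TMM scaling (-0.16 to 0.0094) and DESeq2 size factors (-0.14 to 0.03), and with MDI under scaling to all reads (-0.0122 to 0.15). The balance of miR-100 against miR-125b did the same, with log2 changes of 1.63 and -0.86.

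Rfam entries of the same families held reads that the comparisons leave out. Summed over entries, which may count a read more than once, the mir-10 family, to which miR-99 and miR-100 belong, held 2155 reads in IVSC and 3438 in IVSC MDI, and 8957 in SVSC and 507 in SVSC MDI. The lin-4 family, to which miR-125 belongs, held 40, 77, 102 and 24 reads in the same order, so that the reads it could add to the miR-125 values are few.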

How the results depend on the processing

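Over the alternatives, 143 log2 ratios of members kept their direction and their side of the 2-fold limit, 6 reversed, 7 lost and 4 gained a call. The count of 143 includes the setting without the minimum of 10 CPM, where no value could change because every member passed it. Reversed were miR-100 with MDI in IVSC (0.14 scaled to all reads, 0.00627 without miR-21, 0.00668 with copies summed), miR-99b with MDI in IVSC (-0.0501, exact reads), miR-99a in SVSC MDI over IVSC MDI (-0.11, all reads) and miR-125b in SVSC over IVSC (-0.28, mature reads). Among related miRNAs, miR-10a reversed with MDI in IVSC (0.0464 with all reads, 0.10 with exact reads), with MDI in SVSC (0.27 with mature, 0.59 with exact reads) and in SVSC over IVSC (0.0191 with TMM, 0.0394 with DESeq2 size factors, 0.00637 without miR-21), and let-7a with MDI in IVSC (0.11, all reads) and in SVSC MDI over IVSC MDI (-0.0463, all reads). The cause was not tested.

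Members called higher went from 1 to 2 with MDI in IVSC (all reads, mature reads) and in SVSC over IVSC (DESeq2 size factors). In SVSC MDI over IVSC MDI they went from 1 to 0 (all reads, exact reads), with 1 called lower on exact reads. Calls over all miRNAs moved by more than 1.5 times in these cases. Higher in SVSC over IVSC, 11 became 24 (TMM), 28 (DESeq2), 24 (without miR-21), 7 (mature reads) and 18 (exact reads). Higher in SVSC MDI over IVSC MDI, 26 became 7 (all reads) and 9 (exact reads), and lower, 15 became 29 (all reads) and 25 (without miR-21). With MDI, rises in SVSC became 33 (all reads), and falls in IVSC became 21 (all reads), 23 (mature reads) and 19 (exact reads).

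For the partner balances, 44 values stayed on their side. Among these, the balance of miR-99b and miR-125a could not change with the way of counting copies, as neither has copies. On exact reads the balance of miR-99a and miR-125b with MDI in IVSC reversed (-0.0322), the balances of miR-99b and miR-125a (0.91) and of miR-100 and miR-125b (0.97) in SVSC over IVSC were short of 2-fold, and that of miR-100 and miR-125b in SVSC MDI over IVSC MDI passed it (-1.27). Requiring 1000 reads per hairpin, an alternative chosen after seeing the data, could not change the rest-of-hairpin counts of members. Every member hairpin had at least 1356 reads in every library. With 1 library per group, comparisons with SVSC MDI, the shallowest library, could not be repeated without it. No paired analysis was possible because each group has 1 library, so no 2 groups share more than 1 replicate number. A fit that takes the 2 origins as replicates of the MDI comparison was not run.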
